A study of Homo sapiens with 6 samples.

Results

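The 10 keratin genes described here are KRT7, KRT8, KRT18, KRT19, KRT80, KRT81, KRT10, KRT17, KRT5 and KRT15, found by matching the Ensembl identifiers of the 6 tables to GENCODE 29 symbols. They are 10 of 55 protein-coding keratin genes and of 58735 genes in all. Each of them reached a mean of 1 FPKM (fragments per kilobase of gene, scaled between libraries) and was tested. The cells were SKOV3, an established human ovarian carcinoma line. In 3 libraries, called TIPE2, the cells carried a lentivirus with human TIPE2 cDNA, the coding sequence of TNFAIP8L2. In 3 libraries, called Vector, they carried the empty vector. The labels describe puromycin selection of a stable population and name each library a biological replicate, without stating if transductions or cultures were separate. A p-value here is therefore set by how much these 6 libraries vary, which may be technical.

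Keratins are the intermediate filament proteins of epithelial cells. A type I (acidic) chain pairs with a type II (basic) chain, and the pairs assemble into filaments that are anchored at desmosomes and hemidesmosomes. Simple, single-layered epithelia and the adenocarcinomas that arise from them mainly use KRT8 and KRT7 (type II) with KRT18 and KRT19 (type I). Stratified epithelia use KRT5 with KRT14 and KRT15 in the basal layer and KRT10 with KRT1 above it, and KRT17 is a type I keratin of skin appendages and of injured or activated epithelium. KRT80 is a type II keratin of many epithelia and KRT81 a type II keratin of hair.

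The family is similar in sequence, which matters for how fragments are assigned. The stretch below codes for the conserved end of the central rod, where the helix of each chain stops. It comes from GENCODE 29 principal transcripts (GRCh38), read 5′ to 3′ on the coding strand, and is 30 bases long in each gene. Capitals mark bases that differ from KRT8 for type II chains and from KRT19 for type I chains.
KRT8: acctacaggaagctgctggagggcgaggag
KRT7: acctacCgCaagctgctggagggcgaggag
KRT5: acTtacCgCaagctgctggagggcgaggaA
KRT81: acctacaggCGCctgctggagggcgaggag
KRT86: acctacaggCGCctgctggagggcgaggag
KRT19: acctaccgcagcctgctcgagggacaggaa
KRT18: acctaccgcCgcctgctGgaAgATGGCgaG
KRT17: acctaccgcCgcctgctGgagggaGaggaT
KRT14: acctaccgcCgcctgctGgagggCGaggaC
KRT7 differed from KRT8 at 2 of these 30 bases and KRT5 at 4, whereas KRT18 differed from KRT19 at 9. KRT81 and its neighbour KRT86 had 0 differences here. Over the whole principal transcript, 44.6% of the 50-base windows of KRT81 were also present in other genes, most of them in KRT86. The share was 32.7% for KRT8 and 31.8% for KRT18, with the most in the pseudogenes KRT8P3 and KRT18P11, 16% for KRT17 and at most 3.99% for the other 6 genes. For KRT14 it was 23.8%, with the most in KRT16. How the authors treated fragments that match several genes is not given in the sources used here, so values of KRT81, KRT8, KRT18, KRT14 and KRT17 are less certain in this respect. Pseudogene rows took few fragments: the 50 KRT8 pseudogenes held 0.404% to 0.637% of the fragments of KRT8 and its copies together, and the 67 KRT18 pseudogenes held 0.247% to 0.888%.

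Depth was similar in all libraries, between 15983317 and 18583473 fragments assigned to genes. TNFAIP8L2 had 58.4, 47.2 and 48.8 FPKM in TIPE2 1, 2 and 3, against 0, 0.0476 and 0 FPKM in Vector 1, 2 and 3, as the labels say. Of the epithelial carcinoma markers, ERBB2 had 383 to 792 FPKM over the 6 libraries, PAX8 had 26.2 to 39.1 FPKM and EPCAM 5.55 to 12.5 FPKM, while the epithelial cadherin CDH1 had 0.238 to 1.83 FPKM. The tight junction gene CLDN3 had 4.99 to 11 FPKM in TIPE2 and 3.7 to 6.71 FPKM in Vector libraries and CLDN7 1.36 to 2 against 2.14 to 2.3 FPKM, neither past the threshold. Summed over their lists, immune markers reached at most 0.418 FPKM in any library. Endothelial markers summed to 0.813 to 1.07 FPKM in TIPE2 and 0.528 to 0.688 FPKM in Vector libraries. Among the latter markers, PECAM1 had 0.232 to 0.939 FPKM in TIPE2 and 0.103 to 0.21 FPKM in Vector libraries, without overlap. KDR had 0.135 to 0.576 against 0.318 to 0.479 FPKM, and neither gene was tested. The endothelial CDH5 and EMCN and the immune CD3E were at 0.

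The 10 keratins were mostly highly expressed in SKOV3 and mixed in kind. Over the 6 libraries 8 of the 10 genes had a mean above 20 FPKM. By mean level the order was KRT7 (230 FPKM), KRT8 (225 FPKM), KRT19 (180 FPKM), KRT17 (132 FPKM), KRT18 (89.2 FPKM), KRT80 (57.2 FPKM), KRT5 (42.1 FPKM), KRT10 (28.8 FPKM), KRT81 (3.78 FPKM) and KRT15 (1.17 FPKM). KRT7 and KRT8 each exceeded 99% of the 12538 tested genes, KRT18 exceeded 96.3% and KRT15 only 3.84%. Outside the 10, KRT14, the type I partner of KRT5 in basal cells, had a mean of 254 FPKM over the 6 libraries, above KRT7. In the TIPE2 libraries alone its mean of 194 FPKM was below that of KRT8 (203 FPKM).

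Several neighbours in this order could not be separated. Each pair of neighbours was compared within libraries by an exact two-sided sign-flip permutation test, adjusted over the 9 pairs by the Benjamini-Hochberg method. KRT8 was above KRT19, KRT18 above KRT80 and KRT10 above KRT81 in 6 of 6 libraries each (mean log2 ratios of 0.32, 0.62 and 3.06), which gave the smallest p that 6 libraries allow, and an adjusted exact permutation p of 0.09375. The remaining 6 pairs changed places in at least 1 library. KRT7 was above KRT8 in 3 of 6 libraries, which were the 3 Vector libraries, with a mean log2 ratio of -0.06 ± 0.44 (SD, n = 6 libraries, exact permutation p = 0.75). The order also depends on the length used. The deposited values are per merged exon length, which is 6881 bases for KRT8 against 2126 bases in its principal transcript. Per principal transcript length, KRT8 came first with a mean of 730 FPKM and KRT7 second with 537 FPKM. KRT8 was the higher of these in 6 of 6 libraries (adjusted exact permutation p = 0.05625). KRT5 (71.4 FPKM) passed KRT80 (64.5 FPKM) in mean, but was higher in only 3 of 6 libraries (adjusted exact permutation p = 0.875). KRT14 then had 349 FPKM, below both KRT8 and KRT7.

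**Figure D1:**
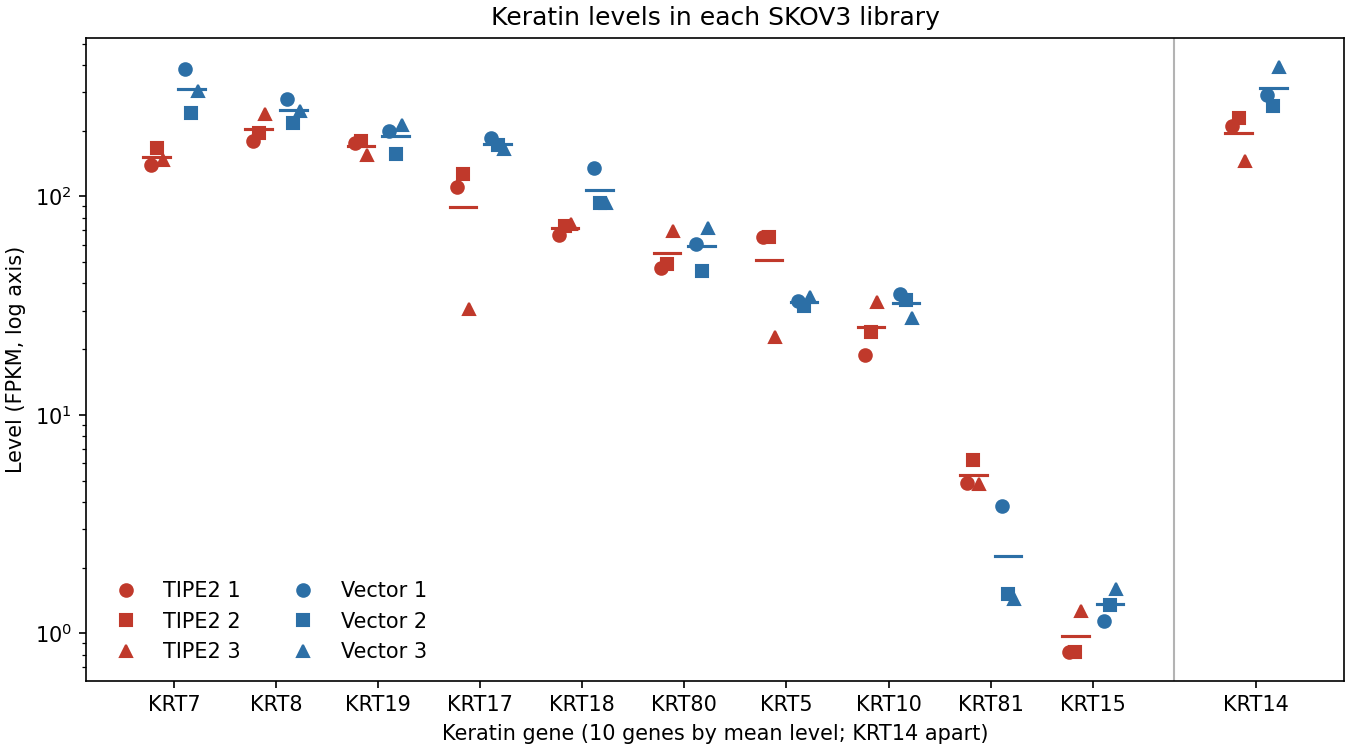
FPKM on a log axis of the 10 keratin genes, ordered by mean, and of KRT14, in the 3 TIPE2 (red) and 3 Vector (blue) libraries, with marker shape for the replicate and a bar for the group mean. The TIPE2 and Vector points do not overlap for KRT7, KRT17, KRT18, KRT81 and KRT14, and TIPE2 3 lies far below TIPE2 1 and 2 for KRT17 and KRT5.

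The expressed genes lay in a few places of 2 gene clusters. On GRCh38, the type II genes and KRT18 form a cluster of 27 genes on chromosome 12, and the other type I genes one of 28 genes on chromosome 17. KRT80 (chromosome 12, 52168996 to 52192000) and KRT7 (52232520 to 52252186) stand at one end of the first cluster and KRT8 (52897187 to 52949954) and KRT18 (52948871 to 52952901) at the other. Of the genes between, KRT5 and KRT81 were the ones above 1 FPKM in mean. On chromosome 17, KRT19, KRT14 and KRT17 were within the last 5 genes. Of the 55 protein-coding keratin genes, 13 reached a mean of 1 FPKM, 19 had fragments but a lower mean, and 23 had no fragment in any library. KRT1, the partner of KRT10 in skin, was among those at 0 fragments.

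**Figure D2:**
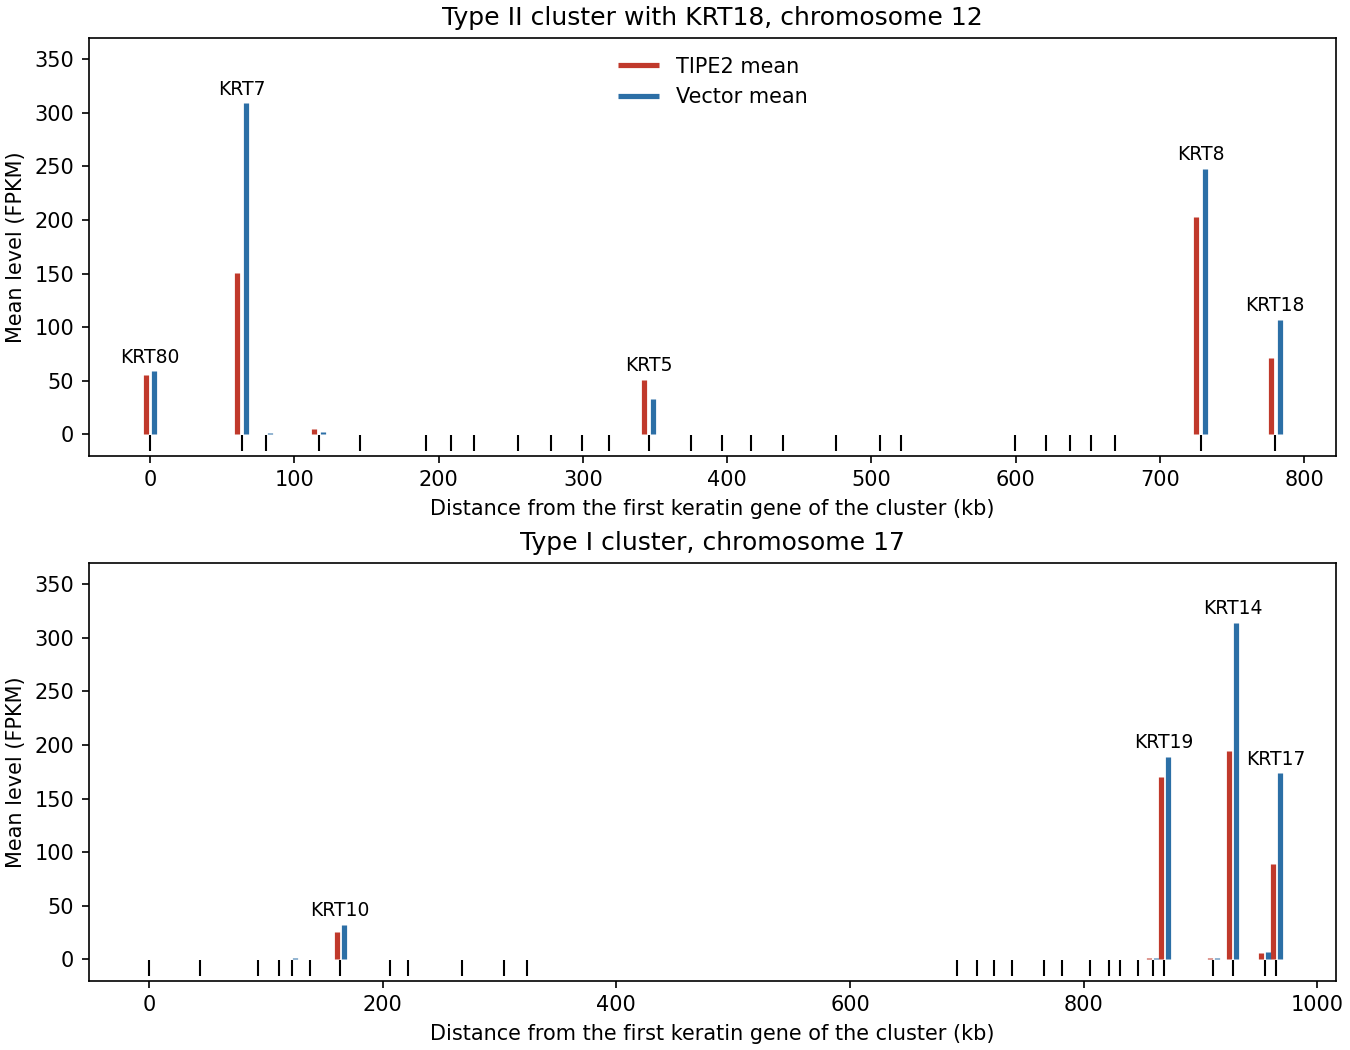
Mean FPKM in TIPE2 (red) and Vector (blue) libraries against distance in kb from the first keratin gene of the chromosome 12 cluster (top) and the chromosome 17 cluster (bottom), with a black tick for every protein-coding keratin gene. High genes such as KRT7, KRT8 and KRT14 stand beside many ticks with no visible level.

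The comparison of TIPE2 with Vector asks which keratins differ when TIPE2 is introduced. None of the 10 genes passed at an adjusted p under 0.05 with limma on log2(FPKM + 1). With voom on recovered fragments, none passed either. In the limma fit 0.0239% of the 12538 tested genes passed, the introduced TNFAIP8L2 among them. At an unadjusted p under 0.05 there were 4 of the 10, KRT7, KRT81, KRT18 and KRT17, against 5.99% of all tested genes. In 3 of the 10 (KRT7, KRT18 and KRT17) all TIPE2 libraries lay below all Vector libraries, as for 5.31% of all tested genes. In 1 of the 10, KRT81, all lay above, as for 6.18%. The log2 difference was negative for 8 genes and positive for KRT81 and KRT5, with a median of -0.28 over the 10 and -0.006 over all tested genes. The 10 genes were listed with earlier results of these data known, so these counts describe them and are no test of the family. In RNA from whole cultures, fewer cells that express a gene and less RNA per cell cannot be told apart.

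**Figure D3:**
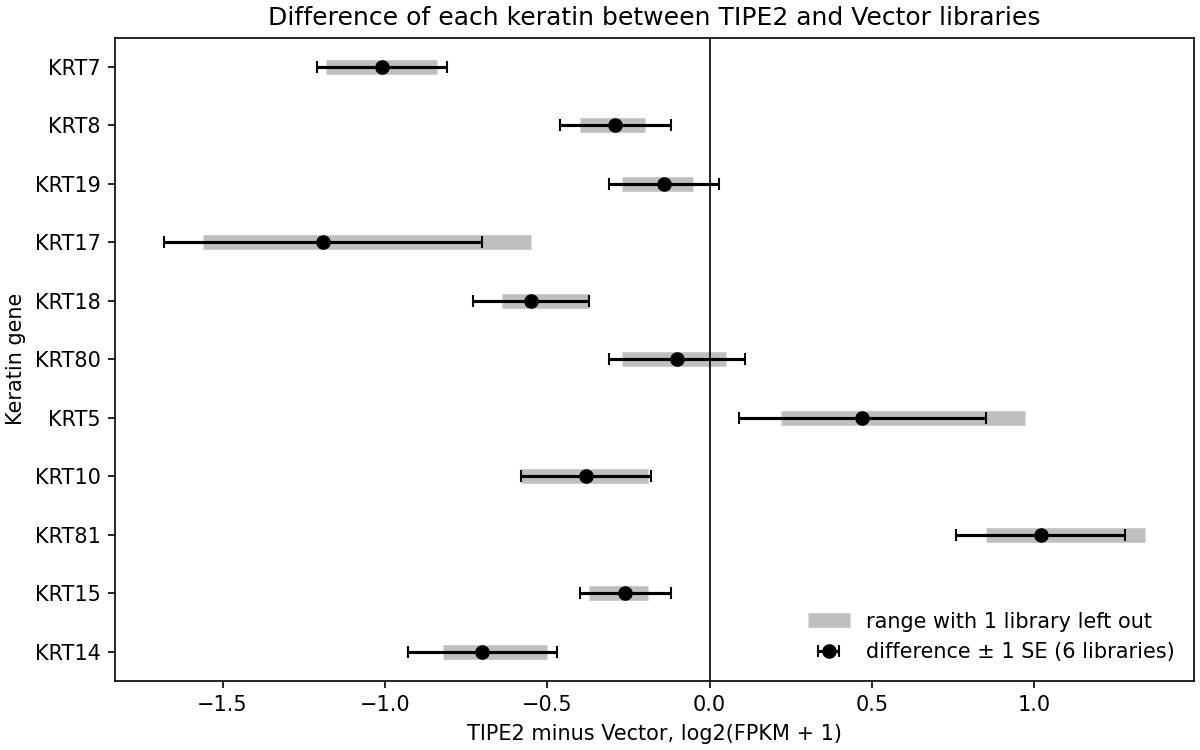
Difference of TIPE2 minus Vector in log2(FPKM + 1) for the 10 keratin genes and KRT14, with bars of 1 standard error from limma and grey bands for the range over the 6 fits that each leave out 1 library. KRT7 stays between -1.18 and -0.84, whereas KRT17 spans -1.56 to -0.55 and KRT80 crosses 0.

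Of the simple type II chains, KRT7, a marker used to tell ovarian from intestinal adenocarcinoma, had the smallest p of the 10. Its level was 139, 166 and 147 FPKM in TIPE2 1, 2 and 3, against 384, 241 and 303 FPKM in Vector 1, 2 and 3. Every TIPE2 library was below every Vector library, and the Vector libraries were spread more widely. The means were 151 ± 13.7 and 309 ± 71.8 FPKM (SD, n = 3 each), 2.05-fold higher in Vector, a log2 difference of -1.01 ± 0.20 (SE, limma adjusted p = 0.343, unadjusted p = 0.000943). The exact two-sided permutation p was 0.1, the smallest that 3 against 3 libraries can give. KRT7 overlaps the antisense gene KRT7-AS over 282 exon bases, 6.89% of its own. KRT7-AS had 3.12 to 5.35 FPKM, with overlapping groups.

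KRT8, the type II chain of every simple epithelium, had 179, 194 and 237 FPKM in TIPE2 1, 2 and 3, against 279, 217 and 247 FPKM in Vector 1, 2 and 3. TIPE2 3 lay above Vector 2, so the groups overlapped. The means were 203 ± 30.2 and 248 ± 30.7 FPKM (SD, n = 3 each), with a log2 difference of -0.29 ± 0.17 (SE, limma adjusted p = 0.834). Within each library KRT7 and KRT8 can be set against each other without any scaling between libraries. The ratio of KRT7 to KRT8 was 0.778, 0.855 and 0.621 in TIPE2 1, 2 and 3, against 1.38, 1.11 and 1.23 in Vector 1, 2 and 3, so the 2 groups did not overlap in it either.

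KRT18, the type I partner of KRT8 and the keratin that caspases cleave in dying epithelial cells, had 66.7, 73.5 and 74.5 FPKM in TIPE2 1, 2 and 3. In Vector 1, 2 and 3 it had 135, 93.2 and 92.8 FPKM. All TIPE2 libraries were lower, and Vector 1 stood above the other two Vector libraries. The means were 71.6 ± 4.23 and 107 ± 24.2 FPKM (SD, n = 3 each), 1.49-fold higher in Vector, with a log2 difference of -0.55 ± 0.18 (SE, limma adjusted p = 0.743, unadjusted p = 0.0141). Without Vector 1 the difference was -0.37. KRT18 shares 525 exon bases, 16.3% of its own, with KRT8 on the opposite strand, so without strand information fragments there cannot be told apart.

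KRT19, the smallest type I keratin and one that lacks most of the tail domain, had 176, 180 and 154 FPKM in TIPE2 1, 2 and 3, against 199, 156 and 212 FPKM in Vector 1, 2 and 3. The groups overlapped, and the means of 170 ± 13.9 and 189 ± 29.2 FPKM (SD, n = 3 each) differed by -0.14 ± 0.17 on the log2 scale (SE, limma adjusted p = 0.864). Leaving out 1 library at a time gave -0.27 (without Vector 2) to -0.05 (without Vector 3), and quantile normalization -0.04. The ratio of KRT7 to KRT19 was 0.791 to 0.955 in the TIPE2 libraries and 1.43 to 1.93 in the Vector libraries. It uses the same KRT7 values as above, and whether the simple keratins differ in their changes was not tested.

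Type II and type I chains of simple epithelia were also compared from library to library, in 4 pairs. For KRT8 with KRT18, Pearson's r of log2(FPKM + 1) over the 6 libraries was 0.846 (exact permutation p = 0.0278, adjusted over the 4 pairs 0.0556) and Spearman's rho 0.829 (exact permutation p = 0.0583, adjusted 0.117). Without TIPE2 1 and Vector 1, the libraries farthest from the median of KRT8, r was 0.447. Leaving out the extremes of KRT8 narrows its range, which by itself tends to lower r, so this cannot tell if the relation rests on those 2 libraries. Leaving out 1 library at a time gave an r of 0.705 (without Vector 1) to 0.956 (without TIPE2 3). KRT8 with KRT19 had an r of 0.368 and a rho of 0.429 (exact permutation p = 0.461 and 0.419, adjusted p = 0.461 and 0.419), and an r of 0.223 without the same 2 libraries. For KRT7 the 2 groups form separate clusters, so no r over all libraries is given for its pairs. The groups did not overlap for KRT18 either, so the r of KRT8 with KRT18 over all libraries can include the difference between the groups. KRT8 and KRT18 also share 525 exon bases on opposite strands, and the part of these bases in r was not tested. As deviations from the group means, with no test, r over the 6 libraries was 0.841 for KRT7 with KRT18 and 0.672 for KRT7 with KRT19, beside 0.698 for KRT8 with KRT18 and 0.119 for KRT8 with KRT19.

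The stratified keratins KRT17 and KRT5 set TIPE2 3 apart from TIPE2 1 and 2. KRT17 had 110, 127 and 30.5 FPKM in TIPE2 1, 2 and 3, against 185, 171 and 164 FPKM in Vector 1, 2 and 3. It was lower in all TIPE2 libraries, and in TIPE2 3 far more than in the others. The means were 89.3 ± 51.6 and 174 ± 10.7 FPKM (SD, n = 3 each), with a log2 difference of -1.19 ± 0.49 (SE, limma adjusted p = 0.827, unadjusted p = 0.0454). Without TIPE2 3 the difference was -0.55 (limma adjusted p = 0.273).

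KRT5 was the type II keratin that went the other way in part of the libraries. It had 65.4, 65.5 and 22.7 FPKM in TIPE2 1, 2 and 3, against 33.1, 31.4 and 34.5 FPKM in Vector 1, 2 and 3. TIPE2 1 and 2 lay above, and TIPE2 3 below, a narrow range of Vector libraries, so the groups overlapped. The log2 difference was 0.47 ± 0.38 (SE, limma adjusted p = 0.844), 0.97 without TIPE2 3 (adjusted p = 0.069) and 0.22 without TIPE2 2. Of the 12 epithelial carcinoma markers, 9 were lower in TIPE2 3 than in TIPE2 1 and 2, such as EPCAM with 12.5, 11.9 and 5.55 FPKM in TIPE2 1, 2 and 3, and CDH1 with 1.83, 1.63 and 0.427 FPKM. In 2 of the 12 TIPE2 3 was the highest of the 3, PAX8 with 27.1, 27.2 and 39.1 FPKM and CLDN7 with 1.36, 1.72 and 2 FPKM. In other lists TIPE2 3 was the lowest of the 3 for 8 of 10 fibroblast markers and the highest for 0. For 23 desmosome and hemidesmosome genes it was the lowest for 11 and the highest for 5. Of 22 genes whose proteins bind, modify or degrade keratins, it was the lowest for 7 and the highest for 12. Among the 10 keratins it was the lowest for 4 and the highest for 5. The share over all tested genes was not counted. Of the 12 epithelial carcinoma markers 10 were tested. Their sum over all 12 lay between 827 and 1566 FPKM in TIPE2 and between 908 and 1417 FPKM in Vector libraries. The part of these differences in the KRT17 and KRT5 values was not tested.

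KRT10, the type I keratin of the upper epidermis, had 18.8, 24 and 32.7 FPKM in TIPE2 1, 2 and 3, against 35.9, 33.4 and 27.8 FPKM in Vector 1, 2 and 3. TIPE2 3 lay above Vector 3, so the groups overlapped, with a log2 difference of -0.38 ± 0.20 (SE, limma adjusted p = 0.834). It was -0.19 without TIPE2 1 and -0.58 without TIPE2 3 (limma adjusted p = 0.276). KRT15, a type I keratin of basal cells, was near the filter, with 0.825 to 1.26 FPKM in TIPE2 and 1.14 to 1.6 FPKM in Vector libraries, also overlapping. Its log2 difference was -0.26 ± 0.14 (SE, limma adjusted p = 0.834).

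Of the remaining type II genes, KRT80 had 47.1, 49.2 and 69.4 FPKM in TIPE2 1, 2 and 3, against 60.4, 45.4 and 71.8 FPKM in Vector 1, 2 and 3. The groups lay across the same range, and the log2 difference of -0.10 ± 0.21 (SE, limma adjusted p = 0.922) changed sign without TIPE2 1 or Vector 3. KRT81 had 4.86, 6.23 and 4.82 FPKM in TIPE2 1, 2 and 3, against 3.84, 1.51 and 1.43 FPKM in Vector 1, 2 and 3, from 155 to 210 and 45 to 117 fragments. Every TIPE2 library was above every Vector library, with Vector 1 closest to them. The means were 5.3 ± 0.803 and 2.26 ± 1.37 FPKM (SD, n = 3 each), 2.35-fold higher in TIPE2, with a log2 difference of 1.02 ± 0.26 (SE, limma adjusted p = 0.642, unadjusted p = 0.0045). KRT86, which shares most of the repeated sequence with KRT81, had 0.674 to 0.877 FPKM in TIPE2 and 0.92 to 1.24 FPKM in Vector libraries and was under the filter. Its groups thus lay in the opposite order to those of KRT81. Within the Vector group both genes fell from Vector 1 to Vector 3, with 1.24, 1.17 and 0.92 FPKM for KRT86.

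Summed by class, the simple keratins KRT7, KRT8, KRT18 and KRT19 had 560, 613 and 613 FPKM in TIPE2 1, 2 and 3, against 996, 708 and 855 FPKM in Vector 1, 2 and 3. The stratified genes KRT5, KRT10, KRT15 and KRT17 summed to 195, 217 and 87.2 FPKM against 256, 238 and 228 FPKM. The ratio of the first sum to the second was 2.87, 2.82 and 7.03 in TIPE2 1, 2 and 3, against 3.9, 2.98 and 3.74 in Vector 1, 2 and 3. It was thus highest in TIPE2 3 and did not separate the groups. With KRT14 added to the stratified genes the ratio was 1.38 to 2.64 in TIPE2 and 1.38 to 1.82 in Vector libraries. All 55 keratin genes together took 0.375% to 0.421% of the assigned fragments in TIPE2 libraries and 0.484% to 0.593% in Vector libraries. The sums of type II over type I chains were 0.74 to 1.08 in TIPE2 and 0.731 to 0.89 in Vector libraries per merged exon length. Per principal transcript length they were 1.12 to 1.73 and 1.14 to 1.37.

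**Figure D4:**
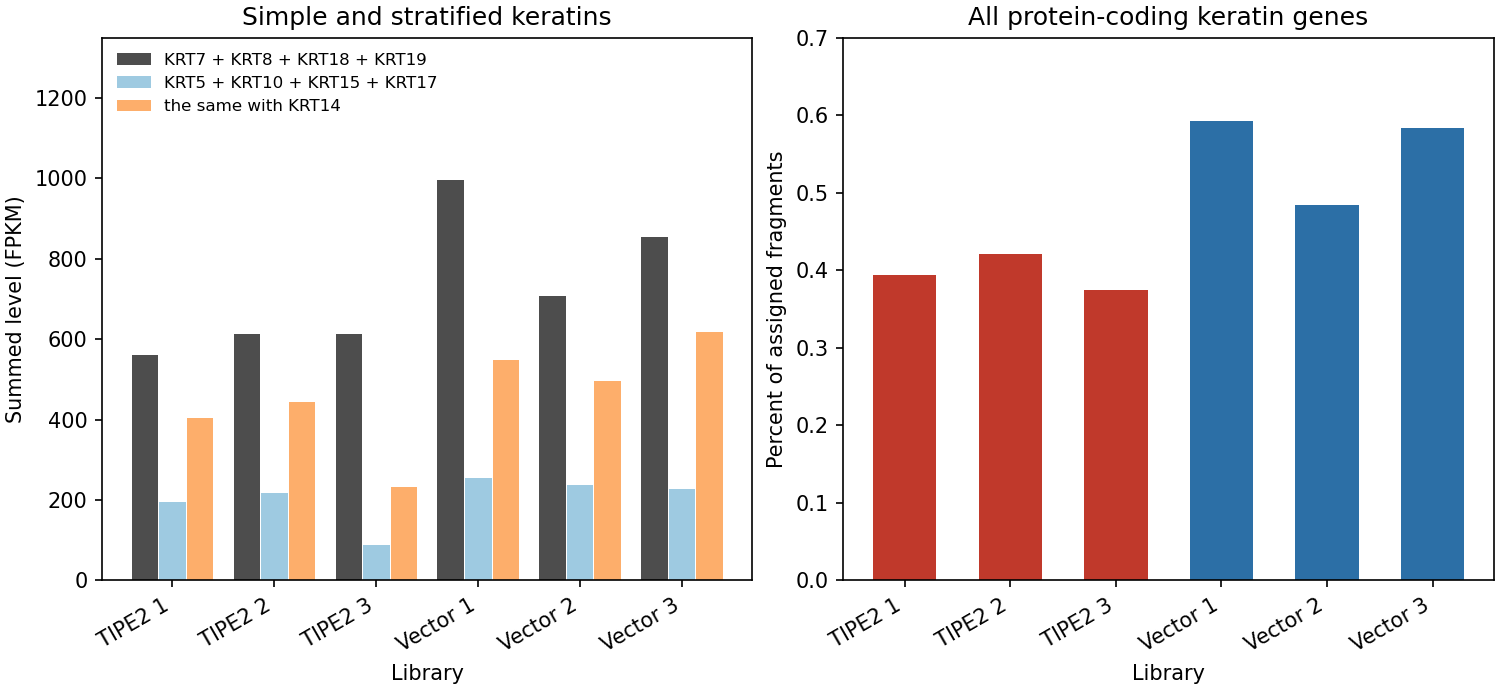
Left, summed FPKM per library of the 4 simple keratins (dark), of the 4 stratified ones (blue) and of these with KRT14 (orange). Right, percent of assigned fragments in all 55 protein-coding keratin genes, in TIPE2 (red) and Vector (blue) libraries. The simple sum is 560 to 613 FPKM in TIPE2 and 708 to 996 FPKM in Vector libraries, and the stratified sum is lowest in TIPE2 3.

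Outside the 10 genes, 3 of 45 other keratins reached the filter, and none of them passed the test. KRT14 had 210, 228 and 145 FPKM in TIPE2 1, 2 and 3, against 292, 259 and 391 FPKM in Vector 1, 2 and 3, without overlap and with a log2 difference of -0.70 ± 0.23 (SE, limma adjusted p = 0.746). KRT16, its relative of activated epidermis, had 4.65 to 6.77 against 4.73 to 10.8 FPKM, and KRT9, a keratin of palm and sole skin, 0.75 to 1.42 against 1.25 to 1.93 FPKM. Of 147 keratin pseudogenes, 4 had a mean of 1 FPKM or more: KRT8P12, KRT87P, KRT223P and KRT8P3. KRT223P had 0.885, 0.637 and 1.23 FPKM in TIPE2 1, 2 and 3, against 2.67, 2.73 and 1.87 FPKM in Vector 1, 2 and 3, with a log2 difference of -0.84 ± 0.16 (SE, limma adjusted p = 0.343). The other 3 had overlapping groups.

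The proteins that anchor keratins were listed as desmosome and hemidesmosome genes. Of 23, 16 were tested, none passed, 10 had a positive difference and 6 a negative one, with a median of 0.12. PKP4, a plakophilin-related catenin, had 10.2 to 14 FPKM in TIPE2 and 8.29 to 9.99 FPKM in Vector libraries (limma adjusted p = 0.78), without overlap. COL17A1, a transmembrane collagen of hemidesmosomes, had 3.93, 3.96 and 8.93 FPKM against 7.39, 9.95 and 11.7 FPKM, with TIPE2 3 inside the Vector range (adjusted p = 0.802). The cytolinker PPL had 4.68 to 5.34 against 2.54 to 4.96 FPKM, and plakoglobin (JUP) 21 to 35 against 33.7 to 37.4 FPKM. Of proteins that bind, modify or degrade keratins, 21 of 22 were tested and none passed, 8 positive and 13 negative, with a median of -0.07. Among them the caspase CASP6, which cuts KRT18, had 12.2 to 13.2 FPKM in TIPE2 and 8.35 to 12.1 FPKM in Vector libraries. The ubiquitin ligase adaptor KLHL24, which targets KRT14, had 2.15 to 3.24 against 1.36 to 2.44 FPKM. CSNK1A1, a kinase that acts on keratin filaments, had 26.8 to 27.1 against 20 to 25.3 FPKM, and the chaperone DNAJB6, which binds KRT18, 6.08 to 7.31 against 7.1 to 8 FPKM.

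Other intermediate filament genes did not pass either, in 8 of 16 tested, 3 positive and 5 negative with a median of -0.06. Vimentin (VIM), the filament of mesenchymal cells that carcinoma cells can express beside keratins, had 247, 268 and 354 FPKM in TIPE2 1, 2 and 3, against 349, 305 and 339 FPKM in Vector 1, 2 and 3. Nestin (NES) had 2.46 to 3.47 against 3.72 to 4.97 FPKM without overlap (limma adjusted p = 0.779), and SYNM and SYNC overlapped. Transcription factors of epithelial genes gave 11 of 20 tested, 5 positive and 6 negative, median -0.01, none past the threshold. KLF4 had 5.6 to 7.41 FPKM in TIPE2 and 4.13 to 5.35 FPKM in Vector libraries, KLF5 52.1 to 53.3 against 51.8 to 71.9 FPKM and FOXA1 1.59 to 1.87 against 2.03 to 2.11 FPKM. TP63, the master regulator of stratified epithelium, had at most 0.369 FPKM. Of 22 squamous and cornified envelope genes, 11 had no fragment and 3 were tested, none of which passed. These were TGM1, with 0.948 to 1.61 against 1.68 to 1.88 FPKM, S100A2, with 53.9 to 97.6 against 88.5 to 94.3 FPKM, and CNFN, with 1.47 to 2.94 against 0.609 to 3.46 FPKM. Of the 6 repressors of epithelial genes in the EMT list, 5 were tested and none passed, with a median of 0.02. TWIST2 had 14.2 to 22 against 20.1 to 23 FPKM, and SNAI2, SNAI1 and TWIST1 overlapped too.

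Of 8 markers of mesothelial cells, which also express simple keratins, MSLN alone had groups without overlap, with the lower levels in TIPE2. The sum of the 8 markers was 12.7 to 22.3 FPKM in TIPE2 and 20.4 to 32.4 FPKM in Vector libraries, and 2 of the 8 were tested. MSLN, also made by ovarian carcinoma, had 10.3, 12.4 and 6.7 FPKM in TIPE2 1, 2 and 3, against 23.8, 12.7 and 14.7 FPKM in Vector 1, 2 and 3 (limma adjusted p = 0.779), while UPK3B overlapped. CALB2 and WT1 stayed at or below 0.616 FPKM and ITLN1 had no fragment. The 10 fibroblast markers, of which COL1A1 and COL1A2 were tested, summed to 2.11 to 9.04 FPKM in TIPE2 and 2.38 to 5.46 FPKM in Vector libraries. COL3A1, with 0.132 to 0.803 against 0.0329 to 0.0898 FPKM, and PDGFRB, at most 0.0656 FPKM, were higher in TIPE2 without overlap. The other fibroblast markers overlapped. The part of these markers in the keratin values was not tested.

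For the simple keratins, the genes with the most similar pattern over the 6 libraries were read from 7200 other genes of 5 FPKM or more in mean, as a description from 6 points. For KRT7 they were DDIT4 and SMOC2 (Pearson's r of 0.988 and 0.987), for KRT8 RPL26 (0.997), for KRT18 BUD13 and RCE1 (0.996 and 0.993) and for KRT19 NOV and IGFBP3 (0.946 and 0.940). An r above 0.95 was reached by 21 genes for KRT7, 250 for KRT8, 70 for KRT18 and 0 for KRT19, and the libraries of a gene share their depth and scaling. DDIT4 had 35.1 to 39.3 FPKM in TIPE2 and 44.4 to 64.1 FPKM in Vector libraries, with Vector 1 highest as for KRT7.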

How the data were processed

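RNA sequencing tables of 6 libraries were used, 3 TIPE2 and 3 Vector, grouped by their titles. The authors deposited FPKM per Ensembl gene, per the file headers. Bowtie, CASAVA 1.7 and the mouse build mm8 appear in the submitters' processing notes, whereas all 58735 identifiers matched human GENCODE 29 (GRCh38), which gave symbols and coordinates; neither the counter nor its strand setting is given in the sources used here. FPKM times merged exon length came out as whole fragments in 100% of values above 0 (tolerance 0.01), with library denominators equal to median-of-ratios size factors times the geometric mean depth, so the values are already scaled between libraries. Fragments lack molecular identifiers.

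limma 3.58.1 in R 4.3.3 (trend, robust) was fitted to log2(FPKM + 1) for the 12538 genes of 1 FPKM or more in mean, adjusted by Benjamini-Hochberg over all of them; the median standard error was 0.14. Fold changes on this scale understate those of low genes. Python 3.11.15 with scipy 1.17.1 gave exact permutation tests.

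Members and gene lists were chosen with earlier results of these data known. Named were the 10 keratins, other keratins of 1 FPKM or more, up to 4 list members with the smallest p, the 4 highest pseudogenes and 2 genes of most similar pattern per simple keratin. KRT86, KRT1, KRT7-AS, TP63, PAX8, EPCAM, CDH1, CALB2, WT1, ITLN1, CDH5, EMCN and CD3E fall outside it and were chosen with their values known. The same holds for PECAM1, KDR, COL3A1 and PDGFRB. Of the genes the rule names, 3 are not reported here. Alternatives were the replicate block, each library left out, other filters, a pseudocount of 0.1, quantile normalization, plain limma, voom and, added after seeing the data, principal transcript lengths.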

Additional observations from a re-analysis of the deposited data

How the results depend on the processing

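None of the 10 keratins passed in the main fit or in any of the 13 alternatives, and all but KRT80 kept their direction in every alternative run that tested them. Leaving out 1 library at a time gave log2 differences of -1.18 to -0.84 for KRT7, -0.64 to -0.37 for KRT18, -1.56 to -0.55 for KRT17, 0.85 to 1.34 for KRT81, 0.22 to 0.97 for KRT5, -0.27 to 0.05 for KRT80 (0.01 without TIPE2 1 and 0.05 without Vector 3) and -0.39 to 0.13 for KRT16 (0.13 without Vector 3). KRT81 and KRT15, which a filter at 5 FPKM removes, had 1.33 and -0.46 with a pseudocount of 0.1. Over all genes in the main fit, 2 were higher, the introduced TNFAIP8L2 among them, and 1 lower. There was 1 higher and 0 lower with the replicate block, with no filter and with a filter at 5 FPKM, 0 lower with a pseudocount of 0.1, and 1 to 8 higher and 0 to 3 lower without 1 library; 8 and 3 came without TIPE2 3. The cause was not tested. Deviations of same-numbered libraries correlated at -0.230, 0.147 and 0.191 in pairs 1, 2 and 3, and those of differently numbered libraries at -0.352 to 0.333. With 3 libraries a group, these values cannot tell if the numbers pair the libraries. The order of levels had 3 of 9 neighbour pairs in 1 direction in all libraries, and 5 per principal transcript length. The correlation of KRT8 with KRT18 was 0.447 without the 2 farthest libraries and 0.698 for deviations from group means, given with no test. It was 0.705 to 0.956 without 1 library, where fewer libraries also raise the smallest p. With 3 libraries a group, the spread between libraries limits the precision.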

Other observations

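The ratio of KRT5 to KRT14, the basal pair, is free of scaling between libraries and was chosen after its values were seen. It was 0.312, 0.287 and 0.157 in TIPE2 1, 2 and 3, against 0.113, 0.121 and 0.0883 in Vector 1, 2 and 3, so every TIPE2 library was above every Vector library, TIPE2 3 included, although TIPE2 3 had the lowest KRT5 level of all. The ratio of KRT17 to KRT14, both type I genes, was 0.527, 0.557 and 0.21 in TIPE2 1, 2 and 3, against 0.635, 0.661 and 0.42 in Vector 1, 2 and 3. It was lowest in TIPE2 3 and, among Vector libraries, in Vector 3, and the groups overlapped. KRT8 to KRT18, the simple pair, was 2.68, 2.64 and 3.18 against 2.07, 2.33 and 2.66, with overlap of Vector 3 and TIPE2 2.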
